A study of Mus musculus with 8 samples.

Results

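The collagen chain genes are the 43 genes, of 38115 listed, whose symbol is Col followed by a number, the letter a and a number. They were measured by RNA sequencing in 8 mouse prostate tumors grown from Myc-CaP cells, a line taken from a prostate tumor of a mouse that carries a human MYC transgene under a promoter active in prostate epithelium. AS (androgen sensitive) or CR (castrate resistant) cells had been placed in the anterior lobe of the prostate of male FVB mice that were intact or castrated by surgery beforehand. Primary tumors and metastases were taken, and the 4 groups (primary AS, metastatic AS, primary CR and metastatic CR) hold 2 tumors each. The question was which genes differ in expression between metastatic and primary tumors. The labels call each metastasis matched but do not name its primary tumor, its organ or the age of the animals. The members were grouped by the structure of the chain into 11 fibrillar, 6 basement membrane (type IV), 6 beaded filament (type VI), 9 fibril-associated (FACIT), 3 short chain network, 2 multiplexin and 4 transmembrane collagens, with the anchoring fibril collagen Col7a1 and Col28a1 kept apart as 2 others. One collagen gene, listed under its older symbol Emid2, does not match the rule and was not counted.

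A collagen is built of 3 chains wound into a triple helix, which can be copies of one chain or a mix of chains from different genes. Fibrillar collagens pack into the cross-linked fibers of stroma and scar, type IV collagens form the sheet-like network of basement membranes under epithelium and around vessels, and type VI collagens form fine filaments near the cell surface. FACIT collagens sit on the surface of fibers, and the multiplexins lie in basement membrane zones, where cleavage of type XVIII collagen releases endostatin. In tumors most fibrillar collagen is made by stromal fibroblasts, while type IV chains are also made by endothelial and epithelial cells.

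Total counts ran from 20905806 to 91886163 per tumor, and the CR group held the 3 shallowest libraries. Collagen genes took only 0.0209% (primary CR 2) to 0.0569% (metastatic AS 2) of all counts. Of the 43 genes, 27 had more than 3 counts in every tumor, and none was at or under 3 counts in all of them. The metastatic CR 2 library stood apart for genes with few counts. Of the 16200 genes at or under 3 counts in at least 1 tumor, 50.1% had their highest normalized count there, and so did 11 of the 16 collagens among them. The labels number the AS and CR libraries in separate ranges, so phenotype and this numbering cannot be told apart. Depth overlapped between the phenotypes through primary CR 1, which had 76887592 counts. Of the epithelial markers, Krt8 was at 2159 to 42146 normalized counts, but Krt18 did not exceed 24.8, Epcam 16.5 and Cdh1 36.0 in any tumor. A normalized count is the count after division by the effective size of its library, brought to the mean size over the 8 tumors. In whole tumors, fewer cells of a type and less RNA per cell cannot be told apart.

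The sequences at which the main basement membrane genes start are given first, since these genes lie in pairs that point away from each other. Col4a1 (chr8:11198423-11312826, minus strand) and Col4a2 (chr8:11312805-11449287, plus strand) overlap at their starts by 22 bases in the GENCODE M21 annotation of GRCm38. In this overlap, from RefSeq sequence of the plus strand, the capitals mark a GC box core.
Col4a1 and Col4a2, chr8:11312805-11312826: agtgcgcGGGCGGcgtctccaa

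The starts of Col4a6 (chrX:141165403-141474076, minus strand) and Col4a5 (chrX:141475385-141689234, plus strand) lie 1309 bases apart, and those of Col4a4 and Col4a3 on chromosome 1 lie 72 bases apart. The stretches before the start of Col4a5 and of Col4a6 are printed because these neighbours differed widely in level. Those before Col3a1, which was more abundant than either type I chain, and Col16a1, the member with the smallest p between phenotypes, follow. All are written 5′ to 3′ on the gene's own strand from RefSeq (GRCm38.p6), end before every annotated start of the gene, and carry in capitals any match on either strand to the 5 motifs searched.
Col4a5, chrX:141475169-141475369, strand plus: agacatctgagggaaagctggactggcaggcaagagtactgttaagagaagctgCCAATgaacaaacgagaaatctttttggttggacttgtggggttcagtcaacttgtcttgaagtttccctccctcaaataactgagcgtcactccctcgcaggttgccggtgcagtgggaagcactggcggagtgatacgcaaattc
Col4a6, chrX:141474096-141474326, strand minus: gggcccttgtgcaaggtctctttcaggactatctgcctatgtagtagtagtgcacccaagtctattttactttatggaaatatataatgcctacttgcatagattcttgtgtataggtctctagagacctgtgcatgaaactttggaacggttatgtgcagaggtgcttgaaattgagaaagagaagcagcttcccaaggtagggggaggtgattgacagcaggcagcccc
Col3a1, chr1:45311288-45311537, strand plus: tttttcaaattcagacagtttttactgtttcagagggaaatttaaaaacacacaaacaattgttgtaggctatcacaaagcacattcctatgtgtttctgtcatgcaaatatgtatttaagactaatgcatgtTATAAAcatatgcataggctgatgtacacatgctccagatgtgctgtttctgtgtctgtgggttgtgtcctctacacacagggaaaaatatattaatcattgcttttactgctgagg
Col16a1, chr4:130047590-130047816, strand plus: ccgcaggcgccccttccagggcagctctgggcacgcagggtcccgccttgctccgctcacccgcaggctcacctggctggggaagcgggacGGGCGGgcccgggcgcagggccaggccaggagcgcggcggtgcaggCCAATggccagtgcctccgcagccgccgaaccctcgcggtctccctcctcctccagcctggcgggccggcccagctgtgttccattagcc

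The motifs were the core of the TATA box (TATAAA), the 5 letters that name the CCAAT box, the core of the GC box (GGGCGG), the E-box bound by Myc and Max (CACGTG) and the site of AP-1 (TGANTCA), none of which contains another. They were searched on both strands in windows from 250 bases before to 50 bases after a RefSeq start, with 38 windows for 35 of the 43 collagen genes and 32851 windows in all. GGGCGG was in 60.5% of the collagen windows and in 35.7% of all windows. The share of G and C ran from 37.7% (Col3a1) to 75.0% (Col5a1) in the collagen windows. Most of these windows lay above the median of 52.7% over all windows. The part of base composition in the motif shares was not tested. The windows of Col4a5 and Col4a6 both held it, though not whole within the stretches printed above. TATAAA was in 13.2% against 13.6%, with Col3a1, Col10a1, Col11a2, Col13a1 and Col17a1 holding it, and CCAAT in 34.2% against 37.4%. CACGTG was in none of the 38 collagen windows and in 7.2% of all windows, and TGANTCA was in 2.6%, the window of Col6a1, against 7.8%. These matches describe letters in the windows only.

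Levels of different genes were compared per length, as RPKM over the longest coding transcript. Basement membrane collagens were the most abundant. Col4a1, the α1 chain of type IV collagen, led with 12.9 ± 4.85 RPKM (SD, n = 8), and its partner chain Col4a2 was at 7.86 ± 2.84. Col12a1, a FACIT collagen that sits on type I fibers, was at 8.03 ± 4.95 and had the widest range by fold of the 10 genes above 1 RPKM, from 0.633 to 15.4 RPKM. Col4a5 followed at 4.84 ± 1.40, then Col5a1 at 3.90 ± 1.20, Col3a1 at 3.42 ± 1.40, Col1a2 at 2.32 ± 0.965, Col5a2 at 1.48 ± 0.781, Col14a1 at 1.17 ± 0.440 and Col1a1 at 1.01 ± 0.326. All other members were below 1 RPKM on average. Within the same tumors, Col4a2 exceeded Col4a5 and Col1a2 exceeded Col5a2 in all 8, and Col3a1 exceeded Col1a2 in 7, while Col12a1 exceeded Col4a2 in 4. The order hung in part on the length. With exon union lengths Col4a2, at 7.66 RPKM, came before Col12a1 at 6.07. Col1a2 was then at 0.997 RPKM, above Col5a2 in only 4 tumors, Col1a1 was at 0.913, and 8 genes exceeded 1 RPKM. The 5 genes with the highest mean over the 8 tumors, Col4a1, Col12a1, Col4a2, Col4a5 and Col5a1, made up 62.6% to 77.3% of each tumor's summed collagen RPKM.

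**Figure D1:**
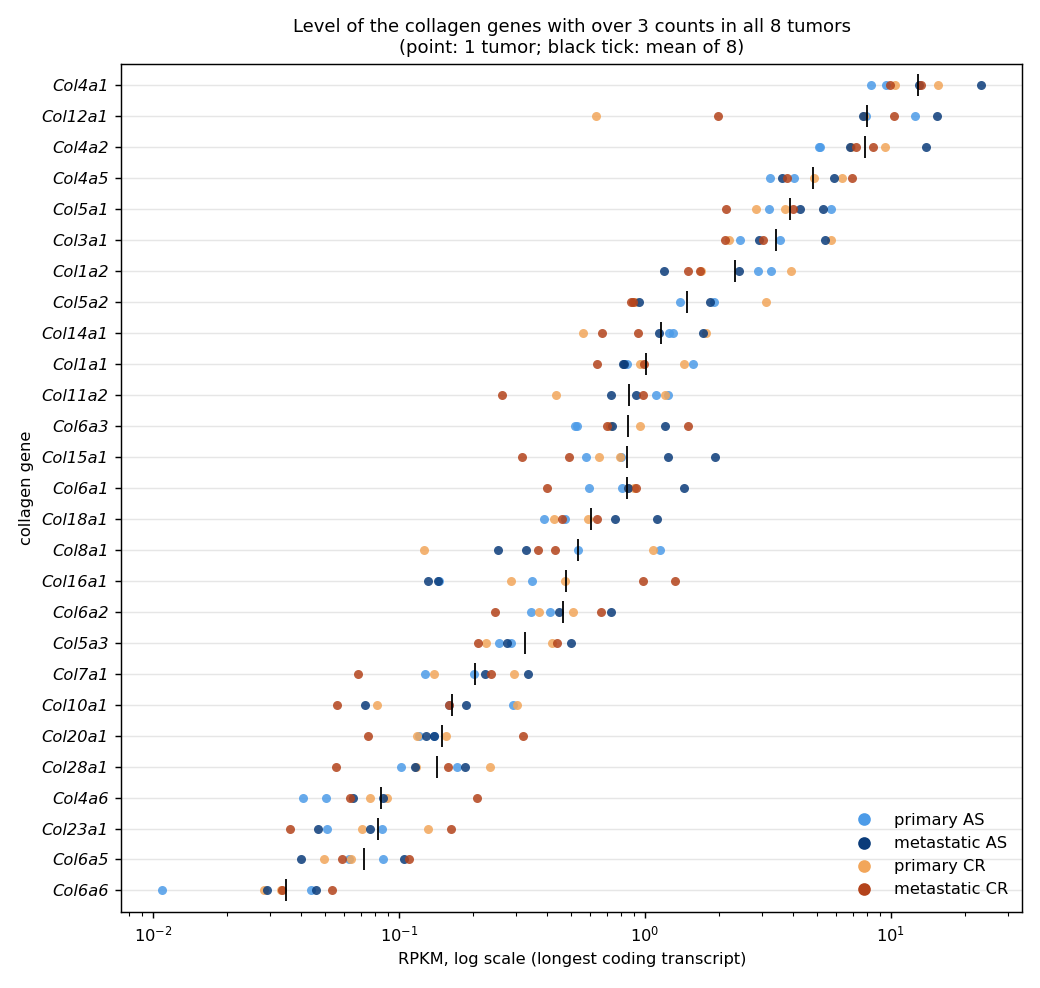
Level of the 27 collagen genes with more than 3 counts in all 8 tumors, in RPKM on a log axis, 1 point per tumor coloured by group, with a black tick at the mean of 8. Col4a1 tops the order at 12.9 RPKM, and the points of Col12a1 for primary CR 2 (0.633) and metastatic CR 2 (1.98) lie far to the left of its other tumors.

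By class, type IV collagens made up 47.3% ± 9.77 (SD, n = 8) of the summed collagen RPKM, with a range of 32.9% to 59.6%. Fibrillar collagens made up 25.1% ± 5.15 and FACIT collagens 18% ± 9.12, with Col12a1 as the most abundant gene among them. Type VI collagens were at 4.33%, multiplexins at 2.61% and short chain collagens at 1.52% on average, and the other classes were below 1%. The fibrillar share was 31.2%, 29.4%, 28.3% and 26.7% in the primary tumors and 25.7%, 17.2%, 17.7% and 24.7% in the metastases. Every primary tumor thus lay above every metastasis, by a narrow gap between primary CR 2 (26.7%) and metastatic AS 1 (25.7%). The share of every other class overlapped between primary tumors and metastases, so this separation is picked from all the classes. A share also depends on the other classes, and the summed CPM of the fibrillar genes overlapped, at 70.2 to 115 in primary tumors and 56.6 to 104 in metastases, beside 110 to 206 and 154 to 283 for the type IV genes. With exon union lengths the ranges were 23.1% to 28.9% and 15.2% to 22.4%. No test was made on this share, since a share over members is set by which genes they are. The FACIT share was lowest in primary CR 2 (4.30%) and metastatic CR 2 (8.69%), against 12.7% to 28.2% elsewhere.

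**Figure D2:**
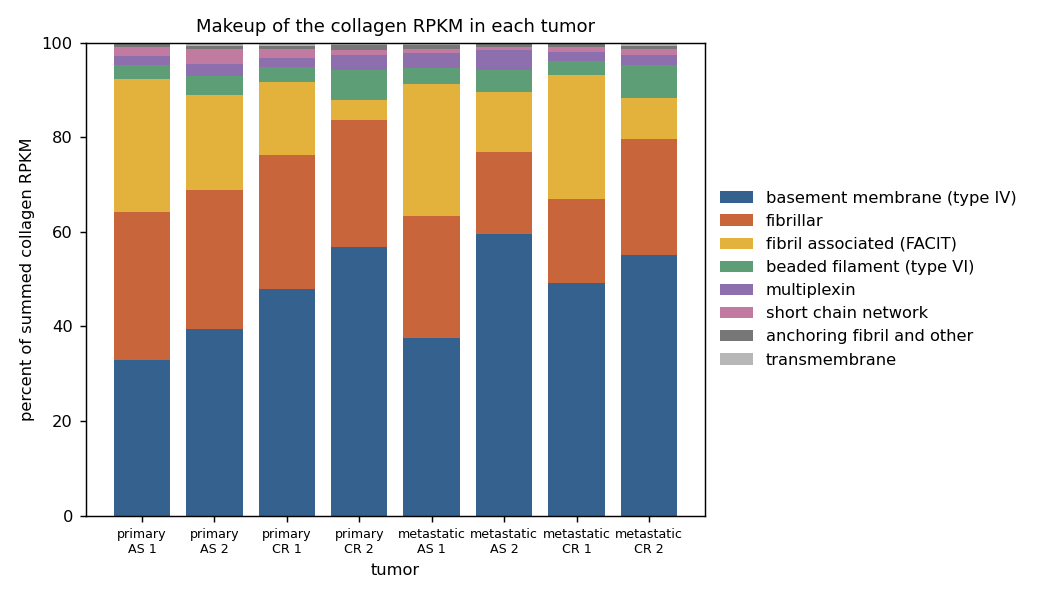
Stacked bars of the share of each collagen class in the summed collagen RPKM of each of the 8 tumors, in percent. The type IV share runs from 32.9% (primary AS 1) to 59.6% (metastatic AS 2), and the FACIT share is smallest in the 2 tumors labelled CR 2.

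Chains that pair in a protein did not keep the same ratio in all cases. The type IV chains α1 and α2 join as 2 copies of the first with 1 of the second, and the RPKM ratio of Col4a1 over Col4a2 was 1.64, 1.85, 1.66 and 1.51 in the primary tumors and 1.91, 1.69, 1.38 and 1.57 in the metastases. Over the 8 tumors the ratio varied 1.38-fold, while the level of Col4a1 varied 2.81-fold. Col6a1 over Col6a2, also neighbours on one chromosome, stayed between 1.38 and 2.31, or between 2.31 and 3.87 with exon union lengths. Col5a1 over Col5a2 ranged more widely, from 0.913 in primary CR 1 to 5.59 in metastatic AS 2. Col1a1 over Col1a2, chains of type I collagen that join as 2 of the first with 1 of the second, was 0.293 to 0.683, below 1 in all 8 tumors. The type I ratio turned with the length used, since with exon union lengths it was 0.616 to 1.43 and exceeded 1 in 4 tumors. Col4a5 over Col4a6, whose starts are neighbours, was 33.7 to 99.2. Col4a3 and Col4a4, the chains of specialised basement membranes such as that of the kidney glomerulus, did not exceed 19.9 normalized counts in any tumor, and Col4a3 shares 563 exon bases with a gene on the other strand.

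**Figure D3:**
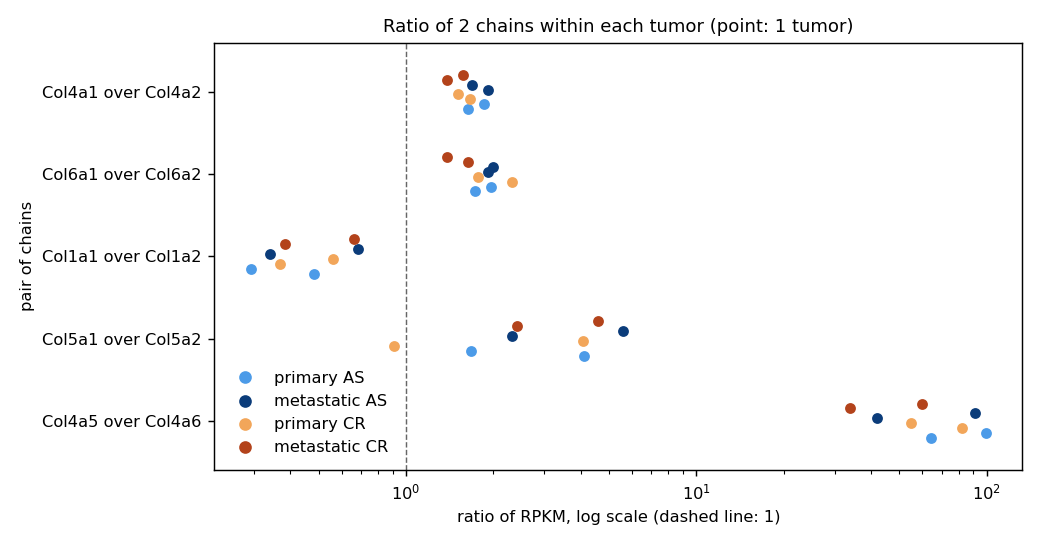
Ratio of the RPKM of 2 collagen chains within each of the 8 tumors, on a log axis, coloured by group, with a dashed line at 1. Col4a1 over Col4a2 and Col6a1 over Col6a2 form tight clusters between 1.38 and 2.31, Col5a1 over Col5a2 is spread out, and Col4a5 over Col4a6 lies above 33.

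Metastatic and primary tumors were compared over both phenotypes with the quasi-likelihood test of edgeR, with tumor type as the only term. Differences between phenotypes thus counted in the spread. The p-values were adjusted by Benjamini-Hochberg over the 17104 genes that passed the low-count filter. No collagen gene passed an adjusted p of 0.05 among the 34 tested, and no gene of the 17104 did (0%). At an unadjusted p under 0.05 there was 1 collagen gene, Col1a2, against 2.68% of all genes, and DESeq2 also called none, with 2 collagens (Col18a1 and Col1a2) under that unadjusted limit, against 3.57% of all genes. The median log2 fold change was 0.19 over the tested collagens and -0.03 over all tested genes, with 21 collagens above 0 and 13 below. No tested collagen had all 4 metastases above all 4 primary tumors, where 0.854% of tested genes did, and none had all of them below, where 0.848% did. The 9 collagens left out by the filter were Col2a1, Col6a4, Col9a1, Col9a2, Col17a1, Col19a1, Col22a1, Col24a1 and Col25a1. In a fit with phenotype as a covariate no gene passed the adjusted threshold either. Col1a2 was again the only collagen under the unadjusted limit there, against 6.7% of all genes.

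Among fibrillar collagens 3 of the 9 tested lay above 0, with a median of -0.47, and 1 had an unadjusted p under 0.05. Col1a2, the α2 chain of type I collagen, was at 1033, 918, 1242 and 538 normalized counts in the primary tumors and at 766, 378, 531 and 474 in the metastases, in the order AS 1, AS 2, CR 1 and CR 2 that all values by tumor follow here. Of the primary tumors 3 thus lay above all metastases, and primary CR 2 did not. Its log2 fold change was -0.80 (SE 0.30, unadjusted p = 0.0265, adjusted p = 0.997 by edgeR's quasi-likelihood test). The unadjusted p stayed under 0.05 in 3 of the 8 fits that left out 1 tumor. Col1a1, the α1 chain of the same protein, was at 554, 299, 508 and 335 in primary tumors and 290, 286, 226 and 348 in metastases, a log2 fold change of -0.56 (SE 0.27). Col5a2, which joins type I fibers as part of type V collagen, was at 545, 749, 1220 and 359 against 721, 372, 350 and 345 (-0.68, SE 0.40). Col5a1, the other main type V chain, was at 2853, 1594, 1412 and 1858 against 2124, 2637, 1070 and 2004, with a log2 fold change of 0.02 (95% interval -0.67 to 0.71). Col3a1, the chain of type III collagen in distensible tissue, was at 805, 1169, 1893 and 723 against 1777, 965, 697 and 1001 (-0.05, 95% interval -0.88 to 0.78). The type V and type III genes thus had no common direction, and the intervals allow changes of either sign. The fibroblast markers (6 genes, all detected, none called) summed to 29.3 to 60.0 CPM in primary tumors and 24.7 to 70.9 in metastases. Of these 6 genes 4 lay above 0, with a median log2 fold change of 0.215, the other way from the fibrillar median. Of the pericyte and smooth muscle markers (6 genes, all detected, none called) 1 lay above 0, with a median log2 fold change of -0.42 and sums of 53.9 to 70.3 and 44.7 to 69.9 CPM. Among these Tagln was at 380, 403, 391 and 88.2 against 219, 176, 120 and 77.0 normalized counts, a gene named after its values were seen. The part of either list in the fibrillar values was not tested.

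All 6 type IV genes lay above 0, with a median of 0.46, and none had an unadjusted p under 0.05. Within AS tumors 5 of the 6 lay above 0, and within CR tumors 3 did. Col4a3 and Col4a4 did not exceed 19.9 normalized counts, and both were highest in metastatic CR 2. Col4a1 was at 3265, 3738, 6129 and 4071 normalized counts in primary tumors and 5105, 9174, 3902 and 5225 in metastases (log2 fold change 0.44, SE 0.30). Col4a2 was at 1947, 1966, 3608 and 2631 against 2606, 5307, 2755 and 3246 (0.46, SE 0.29). Primary CR 1 exceeded 3 of the 4 metastases for both genes, so the groups overlapped. Col4a5, a chain of type IV collagen in skin, smooth muscle and kidney, was at 1256, 1567, 2445 and 1896 against 1394, 2284, 2698 and 1460 (0.13, 95% interval -0.50 to 0.76). Col4a6, its low-level neighbour, was at 19.9, 16.1, 30.2 and 35.3 against 33.8, 25.6, 81.5 and 24.8 (0.72, SE 0.50). The endothelial markers (6 genes, all detected, none called) summed to 47.2 to 70.8 CPM in primary tumors and 58.5 to 95.9 in metastases. Of these 6 genes 4 lay above 0, with a median log2 fold change of 0.42. Only Kdr, which was higher in metastases, had an unadjusted p under 0.05, against 2.68% of all genes. The sum of the endothelial markers was highest in metastatic AS 2, where Col4a1 and Col4a2 were highest too. It was lowest of all 8 tumors in primary CR 1 (47.2), where both genes were next highest. The part of these markers in the type IV values was not tested.

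Type VI collagens lay above 0 for 5 of 5 tested genes, with a median of 0.36 and none under the unadjusted limit. Col6a3, the longest of the main type VI chains, was at 310, 316, 433 and 573 normalized counts in primary tumors and 442, 721, 420 and 897 in metastases (0.60, SE 0.32). Col6a1 was at 144, 196, 208 and 221 against 207, 352, 97.2 and 224, and Col6a2 at 94.6, 113, 102 and 141 against 123, 201, 67.7 and 184. For all 3 chains the lowest metastasis was metastatic CR 1. The multiplexin Col18a1, source of endostatin, was at 129, 157, 196 and 141 against 251, 373, 153 and 211 (0.67, SE 0.31). All 3 short chain genes lay below 0. Of these Col8a1, a chain of the hexagonal network found in vessel walls and the corneal Descemet membrane, was at 163, 349, 326 and 38.2 against 99.95, 76.7, 130 and 112 (-1.08, SE 0.56). Primary CR 2 was the lowest of the 8 tumors for Col8a1, below all metastases. Col7a1, the anchoring fibril of skin and other stratified epithelia, was at 111, 70.2, 162 and 76.4 against 183, 123, 130 and 37.3 (0.18, 95% interval -0.89 to 1.26). Col17a1, a transmembrane collagen of hemidesmosomes, did not exceed 10.4 normalized counts in any tumor and was not tested.

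**Figure D4:**
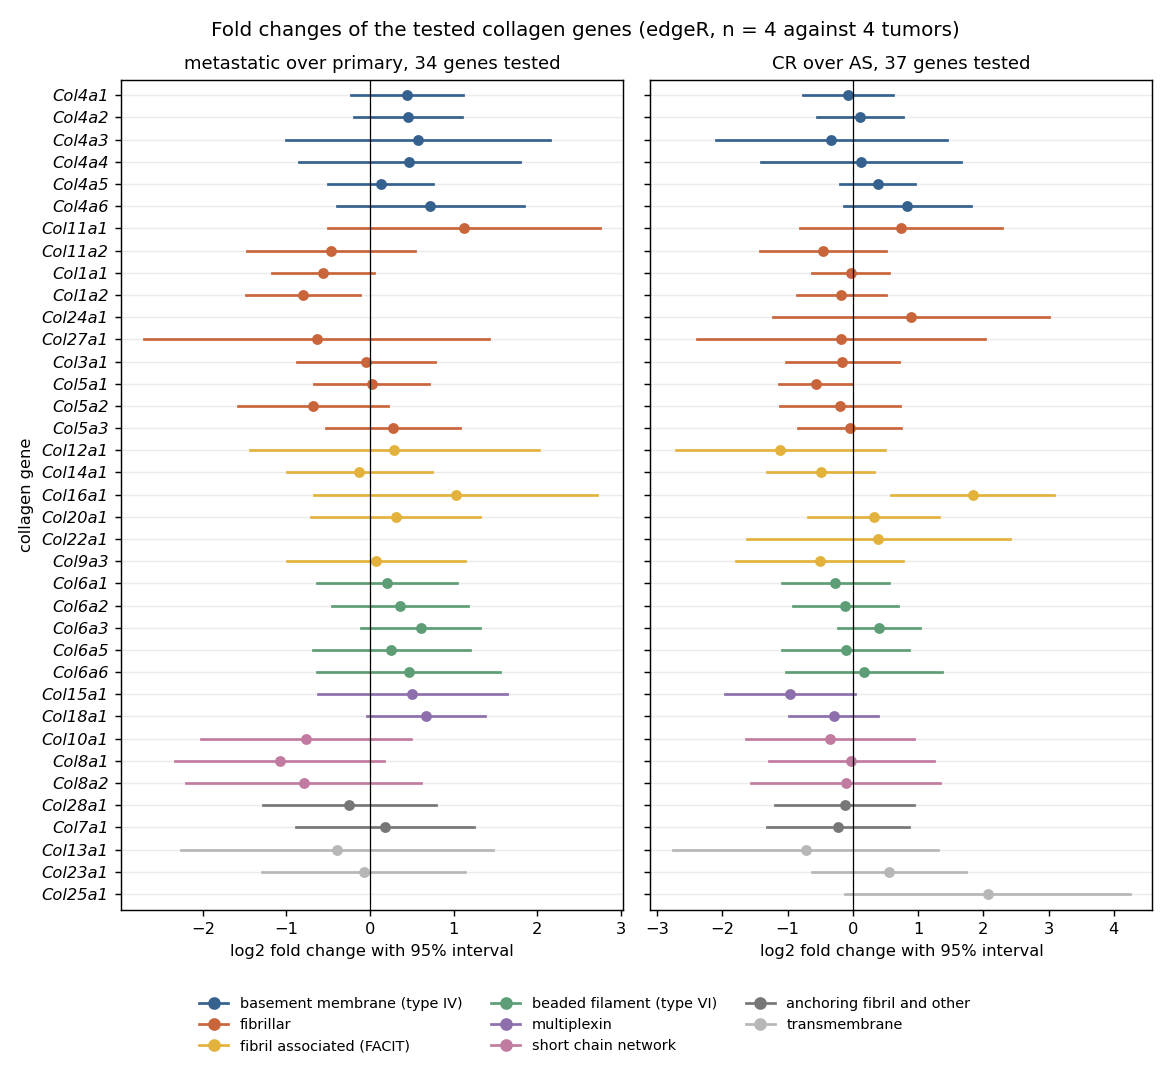
Log2 fold change with its 95% interval for the collagen genes tested, coloured by class, metastatic over primary on the left (34 genes) and CR over AS on the right (37 genes), edgeR, 4 tumors in each arm. On the left only the interval of Col1a2 excludes 0, all 6 type IV points lie right of 0 and all 3 short chain points left, and on the right the intervals of Col16a1 and Col5a1 exclude 0.

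CR and AS tumors were compared with tumor type as a covariate over 18889 genes. Here 1899 genes passed the adjusted threshold (10.1%), and 0 of the 37 tested collagens did. At an unadjusted p under 0.05 there were 2 collagens, against 27.1% of all genes, and DESeq2 called 1 of the 37, Col16a1, against 18.8% of all genes. The median log2 fold change was -0.11 over the collagens, with 13 above 0 and 24 below, and 0.00 over all genes. No tested collagen had all CR tumors above or all below the AS tumors, where 8.64% and 9.04% of tested genes did. With a filter of at least 1 count the shares were 4 of 43 collagens called (9.30%) against 9.72% of all genes. Phenotype itself cannot be told apart from the numbering of the libraries.

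Col16a1, a FACIT collagen of fibrillin and fibril networks, was at 107 and 44.8 normalized counts in primary AS, 44.3 and 40.7 in metastatic AS, 146 and 88.2 in primary CR, and 408 and 303 in metastatic CR tumors. Both metastatic CR tumors were the highest of all, and the phenotypes overlapped only through primary AS 1 and primary CR 2. The log2 fold change of CR over AS was 1.84 (SE 0.55, unadjusted p = 0.00877), and its adjusted p of 0.0685 by edgeR's quasi-likelihood test missed the threshold. It passed with DESeq2, with a filter of at least 1 count, without the tumor type covariate and without primary AS 1. Col5a1 was lower in CR tumors by 0.57 on the log2 scale (log2 fold change -0.57, SE 0.25, unadjusted p = 0.0472, adjusted p = 0.179), with means of 2302 ± 562 in AS and 1586 ± 426 in CR tumors (SD), and the unadjusted p stayed under 0.05 in 3 of the 8 fits with a tumor left out. Col12a1 was at 8600 and 5395 in primary AS, 10510 and 5257 in metastatic AS, 5288 and 432 in primary CR, and 7016 and 1351 in metastatic CR tumors. Its log2 fold change of -1.11 (SE 0.71) rested on primary CR 2 and metastatic CR 2, which were the lowest, while the other CR tumors lay within the AS range. Col25a1, a transmembrane collagen of neurons, had a log2 fold change of 2.07 (SE 0.97) with 2.16 to 17.6 normalized counts in every tumor but metastatic CR 2, where it was at 64.6. It passed the filter through the 2 shallow CR libraries, primary CR 2 (6 raw counts) and metastatic CR 2 (26 raw counts). Its direction between phenotypes was thus in part set by the filter, which left it out between metastatic and primary tumors.

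The other genes of collagen synthesis and its partners were counted from 7 lists (folding and modification, propeptide cleavage, cross-linking, receptors, fibril regulators, basement membrane partners and the TGF-beta axis). Of their 77 genes none of the 71 tested passed the adjusted threshold between metastatic and primary tumors. Of the 74 tested between phenotypes, 2 rose and 4 fell in CR tumors. Crtap, part of the complex that hydroxylates prolines of procollagen, was at 57.7 to 73.6 normalized counts in the 4 AS tumors and at 486, 97.0, 359 and 514 in the CR tumors (log2 fold change 2.43, SE 0.44, adjusted p = 0.0150 by edgeR's quasi-likelihood test). The fibril regulator Fn1, or fibronectin, was at 49489 to 103525 in AS and 138284 to 199682 in CR tumors (1.14, SE 0.28, adjusted p = 0.0346). Those that fell were the cross-linking enzyme Tgm2 (-1.60), the fibril regulator Postn (-2.02) and the basement membrane partners Lamb3 (-2.60) and Agrn (-0.78). Postn was at 6713 and 3396 in the metastatic AS tumors and at 165 to 753 in the other 6. These counts stand beside 0 collagens called and a background of 10.1%.

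Within each phenotype the metastatic effect was estimated from 2 metastases against 2 primary tumors, with the spread shared over all 8. In AS tumors no gene passed the adjusted threshold (0%), so no collagen did, and at an unadjusted p under 0.05 there were 4 collagens of 37, all higher in metastases, against 2.45% of all genes. DESeq2 called no collagen and 11 of all genes, with 6 collagens under the unadjusted limit, against 3.09% of all genes. The 4 by edgeR were Col15a1, Col18a1, Col4a1 and Col4a2, that is both multiplexins and the main type IV pair. Col15a1, a multiplexin of vascular and muscle basement membrane, was at 177 and 245 in primary AS and 380 and 591 in metastatic AS tumors (log2 fold change 1.19, SE 0.37, unadjusted p = 0.0124). Col18a1 had a log2 fold change of 1.12 (SE 0.36), Col4a1 of 1.02 (SE 0.34) and Col4a2 of 1.01 (SE 0.34), and the adjusted p of all 4 was 1. When either primary AS 1 or metastatic AS 2 was left out, none of the 4 stayed under the unadjusted limit.

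In CR tumors no gene passed the adjusted threshold either (0%), and 2 of 37 collagens had an unadjusted p under 0.05, against 7.74% of all genes, while DESeq2 called no collagen, with 3 under that limit against 8.28% of all genes. Col16a1 was higher in the metastases (log2 fold change 1.55, SE 0.49, unadjusted p = 0.0136, adjusted p = 0.625). Col24a1, a minor fibrillar collagen, was at 1.44 and 5.88 normalized counts in primary CR and at 5.21 and 59.6 in metastatic CR tumors (3.38, SE 1.38), so that metastatic CR 2 alone set the difference. Its raw counts were 6, 3, 2 and 2 in primary tumors and 13, 14, 3 and 24 in metastases. The filter of the comparison over both phenotypes left it out. It passed the filter here through metastases, so its direction was in part set by the filter. Col22a1, a FACIT collagen of tissue junctions, was at 2.88 and 2.94 against 6.94 and 22.4, with both metastatic CR tumors above both primary ones. These values rest on raw counts of only 4 and 1 against 4 and 9. Col22a1 too was left out by the filter of the comparison over both phenotypes. Col15a1 went the other way, at 199 and 244 in primary CR and at 151 and 96.9 in metastatic CR tumors (-0.85, SE 0.38, unadjusted p = 0.0576).

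The difference of the metastatic effect between phenotypes was tested itself. No gene passed the adjusted threshold (0%), and 3 of 37 collagens had an unadjusted p under 0.05, against 2.74% of all genes. DESeq2 called no collagen and had the same 3 under the unadjusted limit, against 3.02% of all genes. For Col15a1 the metastatic effect was lower in CR than in AS tumors by 2.04 on the log2 scale (difference -2.04, SE 0.54, unadjusted p = 0.00497). For Col16a1 it was higher by 2.39 (SE 0.70, unadjusted p = 0.00886). For Col4a1 it was lower in CR, at -1.22 (SE 0.48, unadjusted p = 0.0346), beside -1.10 (SE 0.48) for Col4a2. The adjusted p of the 3 was 0.964 by edgeR's quasi-likelihood test. Col15a1 and Col16a1 stayed under the unadjusted limit in all 8 fits that left out 1 tumor, and Col4a1 in 3 of them.

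**Figure D5:**
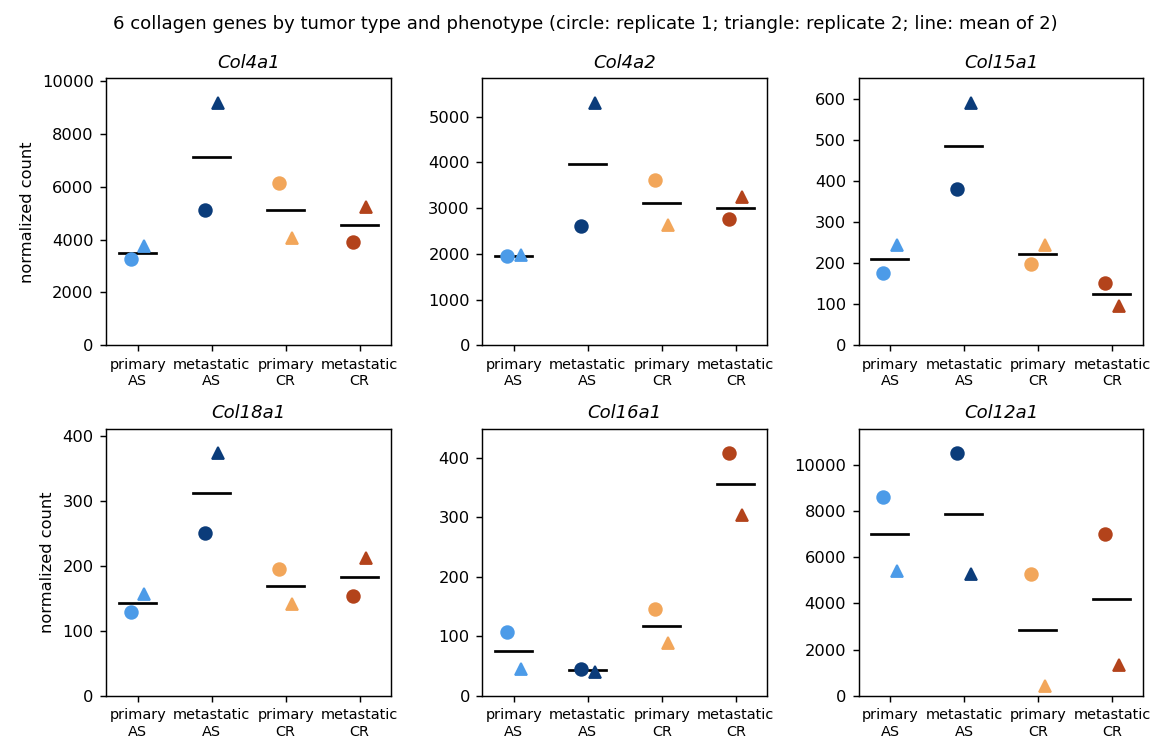
Normalized counts of Col4a1, Col4a2, Col15a1, Col18a1, Col16a1 and Col12a1 in the 4 groups, with a circle for replicate 1, a triangle for replicate 2 and a line at the mean of 2. Col15a1 is highest in the metastatic AS tumors (380 and 591) and lowest in the metastatic CR tumors (151 and 96.9), Col16a1 is highest in the metastatic CR tumors (408 and 303), and Col12a1 is lowest in primary CR 2 (432) and metastatic CR 2 (1351).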

How the data were processed

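Counts of 8 tumors, 4 primary and 4 metastatic, were analysed, with groups taken from the labels. The authors depleted ribosomal RNA, made stranded paired-end libraries, aligned uniquely mapping reads to mm10 with Bowtie and counted them per gene, while the submitters' processing notes name TopHat2 2.0, CASAVA 1.8.2 and GRCm38. The deposited values are raw counts. The annotation release is not given in the sources used here, and all 43 collagen identifiers were found in GENCODE M21. Nothing in the labels says whether tumors of a group came from separate animals, so p-values measure the spread between these samples.

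Genes were filtered by filterByExpr, scaled by TMM factors and tested with edgeR 4.0.16 in R 4.3.3 (quasi-likelihood test, Benjamini-Hochberg adjustment over all tested genes, threshold 0.05). SE and 95% intervals come from the same fit. RPKM used effective library sizes and the longest coding transcript, with exon union length as an alternative, a choice made after seeing the data. Other alternatives were DESeq2 1.42.0, RLE factors, 2 other low-count filters, covariates, each phenotype alone, possible pairings and each tumor left out. The procedure was also run on simulated counts with known changes, drawn with the spread of the same fits. Such runs cannot speak to outlying tumors, to matching or to changes in genes with few counts.

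The members and gene lists were chosen with earlier results of these data known. Values per tumor were given for the main fibrillar, type IV, type VI, multiplexin and anchoring collagens, and for the 3 members with the smallest p in each direction of a comparison. For other lists, genes past the adjusted threshold were named. Col3a1 shared 0.75% of its 101-base exon windows with other genes, Col6a5 2.39%, Col6a6 2.53% and the others 0%. Total counts were 20905806 to 91886163. By effective library size, a floor of 3 counts is 0.0294 CPM (metastatic AS 2) to 0.149 CPM (primary CR 2), for counting error only.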

Additional observations from a re-analysis of the deposited data

Results flagged for a closer look

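Each of the 34 collagen genes tested between metastatic and primary tumors was examined in the 4 primary, 4 metastatic, 4 AS and 4 CR tumors for a tumor set far from the other 3. Of 136 such groups 10 had one. With normally distributed values in independent groups, chance would flag about 1 in 20 groups, or 6.8 here. Untransformed counts in groups that share tumors need not keep that rate. Primary CR 1 was far above the other CR tumors for 3 genes. Col1a2 was at 1242 normalized counts there (474 to 538 in the others), Col5a2 at 1220 (345 to 359) and Col13a1, a transmembrane collagen, at 60.4 (5.88 to 9.93). Primary AS 1 was far above the other AS tumors for Col1a1, at 554 (286 to 299), and for Col16a1, at 107 (40.7 to 44.8). Metastatic AS 2 stood above the other AS tumors for Col5a3 at 181 (93.0 to 103), and metastatic AS 1 above the other metastases for Col5a2 at 721 (345 to 372). Metastatic CR 1 was above the other metastases for Col4a6 at 81.5 (24.8 to 33.8) and below the other CR tumors for Col6a1 at 97.2 (208 to 224). Primary CR 2 was below the other primary tumors for Col11a2, a minor fibrillar chain, at 156 (399 to 445).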

How the results depend on the processing

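In CR against AS tumors the count of collagens called went from 0 to 1 with DESeq2 (Col16a1, with 18.8% of all genes called), to 4 of 43 with genes of at least 1 count (Col5a1, Col12a1, Col15a1 and Col16a1, with 9.72%), and to 1 without the tumor type covariate (Col16a1, with 9.07%). Leaving out 1 tumor gave 0 to 1, with Col16a1 called without primary AS 1 (3.67% of all genes) and Col14a1 without primary CR 1 (18%). Between metastatic and primary CR tumors the filter of at least 1 count gave 1 call of 43, Col5a2, with 1.18% of all genes called. That filter moved the median log2 fold change of all genes to 0.106 between tumor types and 0.108 between phenotypes. Every other count of collagens called stayed at 0. The difference between phenotypes for Col24a1 ranged from -0.29 (without metastatic CR 2, where its sign turned) to 3.17 on the log2 scale (without primary CR 2) as each tumor was left out. The cause of these changes was not tested, but a fit with a lone tumor in a group assumes that it varies like the others. The labels give no pairing, so the 4 ways to pair metastatic with primary tumors of a phenotype were each fitted as a replicate block, and none called a collagen. With 1385 to 15779 counts Col4a1 was not limited by depth, while 16 collagens had 3 counts or fewer in some tumor.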
